A study of Homo sapiens with 8 samples.

Results

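The genes described here encode the ligand TRAIL and the first steps of its signal: TNFSF10 (TRAIL itself), its receptors TNFRSF10A, TNFRSF10B, TNFRSF10C and TNFRSF10D, and the proteins CFLAR, CASP8 and FADD that meet at the receptor. They were measured in hepatoma cells carrying a hairpin against KLHL23, a Kelch-like protein, a family many of whose members bring substrates to cullin 3 ubiquitin ligases. Every probe set that the array annotation pairs with exactly 1 symbol was taken where that symbol was one of these 8 genes. This gave 34 probe sets, out of 54613 probe sets tested and 19775 genes with such a probe set. The genes were proposed after the rise of TNFSF10 and the fall of TNFRSF10B in Huh7 had been seen, so their Huh7 knockdown differences are a description and carry no p-value here. Hep-3B values and the comparison of the control lines were tested, and a probe set is said to be called where its limma p, adjusted over all 54613 probe sets, was under 0.05.

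Hep-3B and Huh7, both established human hepatoma lines, were infected with hairpin lentivirus (multiplicity of infection 2) and put under puromycin after 48 hours. Their 4 groups were Hep-3B with a luciferase hairpin (shLuc, the control, aimed at a gene human cells lack), Hep-3B with shKLHL23, Huh7 with shLuc and Huh7 with shKLHL23. All groups thus shared infection and selection. Each group has 2 Affymetrix arrays, numbered 1 and 3 in the labels, and array values below are given in that order. Nothing in the labels says whether replicates were separate cultures, so the spread that p-values rest on may be only technical. A single name is given for the knockdown hairpin, so an effect of KLHL23 loss and an effect of that hairpin on other transcripts cannot be told apart. Values are log2 expression values, on which a difference of 1 is a doubling.

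TRAIL is a trimeric ligand of the TNF family, on the cell surface or shed from it, and is known from immune cells and from surveillance of tumours, those of liver included. TNFRSF10A (DR4) and TNFRSF10B (DR5) carry a death domain, through which they gather the adaptor FADD and the initiator protease caspase 8 (CASP8). CFLAR encodes c-FLIP, a relative of caspase 8 that controls its activation in this complex, while TNFRSF10C and TNFRSF10D bind TRAIL without a functional death domain and are called decoy receptors. Among protein-coding genes in RefSeq order the 4 receptor genes are direct neighbours, as are CFLAR, CASP10 and CASP8.

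The promoter of TNFSF10 is shown because this gene had the largest change among the 8 genes in Huh7. RefSeq's 250 bases before the annotated start, on the minus strand of GRCh38.p14 at chr3:172523431-172523680, read as follows, with capitals for an element resembling the interferon-stimulated response element (ISRE) and for a TATA box.
TNFSF10 promoter: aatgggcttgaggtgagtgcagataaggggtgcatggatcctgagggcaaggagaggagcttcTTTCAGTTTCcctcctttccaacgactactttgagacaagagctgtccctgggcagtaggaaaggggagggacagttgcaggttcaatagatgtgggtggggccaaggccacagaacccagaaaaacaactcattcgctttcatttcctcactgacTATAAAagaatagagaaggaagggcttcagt
The first capitals hold 2 copies of GAAA spaced by 2 bases on the opposite strand, the pattern searched, and lie 187 to 178 bases before the start. The second match TATAAA and lie 31 to 26 bases before it. Both strands of 35116 RefSeq promoters of 300 bases, reaching 50 bases past the start, were searched. The ISRE-like letters stood in 3.57% of them and TATAAA in 11.5%. The TNFSF10 window held no TTCNNNGAA, a form bound by STAT dimers that stood in 7.66% of promoters, no TGTTTAC, a FOXO core (3.42%), and no GGGCGG, an SP1 core (45%). Among the other genes, promoters were found for CASP8 (3 starts), CFLAR (4 starts) and FADD (1 start), and the ISRE-like letters recurred in 1 promoter of CASP8. These matches are letters in a window, and binding was not measured.

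KLHL23 itself checks the labels. Its probe set read 7.81 and 7.84 in Hep-3B controls against 7.21 and 6.15 in the knockdown arrays, a log2 difference of -1.14 (SE 0.27, limma adjusted p = 0.0764). In Huh7 it read 7.89 and 7.87 against 5.78 and 5.88, a fall by 2.05 (adjusted p = 0.00391 by limma). The knockdown arrays thus kept 65.5% and 31.4% of the control level in Hep-3B and 23.4% and 25% in Huh7. The Hep-3B knockdown replicates were unequal, and the difference there missed the threshold. In 4 of 17 alternative settings it was called. With all 8 arrays kept, these were an intensity trend with a robust prior (limma adjusted p = 0.0478), array weights (0.037) and a replicate block (0.0342). Without knockdown replicate 1 the difference was -1.67, which rests on the 1 array with less KLHL23. Wherever an array was left out, the group of its partner took its spread from the other groups. Array medians lay between 4.56 and 4.60, and the lower quartiles between 3.08 and 3.12, so values near 3 are dim. Of 14 hepatocyte markers measured, the log2 of their summed level was 16.4 to 16.6 on the 8 arrays. The 12 lymphoid and natural killer markers summed to 7.54 to 8.04 on this scale. None of them was called in either knockdown comparison, and their brightest, CD79A, averaged 5.20. In bulk RNA, fewer expressing cells and less RNA per cell cannot be told apart. The difference between the ACTB control probe sets at the transcript's end and start, a measure of RNA quality, was 0.442 to 0.537 in Hep-3B controls and 0.737 to 0.753 in Hep-3B knockdown arrays. It was 0.833 to 0.873 in Huh7 controls and 0.525 to 0.546 in Huh7 knockdown arrays. The same measure for GAPDH was 0.117 to 0.120 in Hep-3B controls and 0.223 to 0.236 in knockdown arrays, and 0.0887 to 0.132 against 0.112 to 0.148 in Huh7. Both measures were higher with the hairpin in Hep-3B, while in Huh7 that of ACTB was lower and that of GAPDH overlapped. Their part in the differences of TNFSF10 and TNFRSF10B was not tested.

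Expression of the ligand was higher in the knockdown arrays of both lines, on all 3 of its probe sets, and the gap was wider in Huh7, a contrast between lines that was not tested because Huh7 chose the genes. On the brightest probe set (202688_at), TNFSF10 read 5.39 and 4.99 in Huh7 controls and 7.24 and 7.97 in Huh7 knockdown arrays. The difference was 2.41 on the log2 scale (SE 0.26), which is 5.33-fold. It was the 4th largest rise among the 19775 genes, each at its brightest probe set. In Hep-3B the same probe set read 5.07 and 4.96 against 5.59 and 6.19, a difference of 0.88 (SE 0.26), or 1.84-fold. No control array reached a knockdown array in either line, but in Hep-3B the difference did not pass the test (limma adjusted p = 0.135).

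The other TNFSF10 probe sets gave the same order of groups at lower levels. Probe set 202687_s_at read 3.54 and 3.55 in Huh7 controls and 5.20 and 5.81 with knockdown, a 3.90-fold difference. In Hep-3B it read 3.03 and 3.11 against 3.73 and 4.18, a difference of 0.89 (SE 0.20) with a limma adjusted p of 0.0696. Of 15 alternative settings 6 called it. Among them were an intensity trend with a robust prior (limma adjusted p = 0.0348), array weights (0.0284) and a replicate block (0.032). The rest of them left out 1 knockdown array, of Hep-3B or of Huh7. Probe set 214329_x_at read 3.09 and 2.80 against 4.34 and 5.08 in Huh7, a 3.39-fold difference, and in Hep-3B 2.81 and 2.70 against 3.04 and 3.34, a difference of 0.43 (limma adjusted p = 0.399). Control levels of these probe sets, 2.70 to 3.55, lay well below the array medians (4.56 to 4.60) and around the lower quartiles (3.08 to 3.12). At such levels a fold tends to be understated.

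The groups ordered, from high to low on 202688_at, as Huh7 knockdown, Hep-3B knockdown, and then both controls. The controls of the 2 lines overlapped and were not called different (0.18 higher in Huh7, limma adjusted p = 0.697). In both lines knockdown replicate 3 stood further from its controls than replicate 1, by 1.18 against 0.58 in Hep-3B and by 2.77 against 2.05 in Huh7. In Hep-3B this was also the array with less KLHL23, but in Huh7 it was the one with slightly more. The spread between knockdown replicates, 0.60 in Hep-3B and 0.72 in Huh7, exceeded that between control replicates, 0.11 and 0.40.

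**Figure D1:**
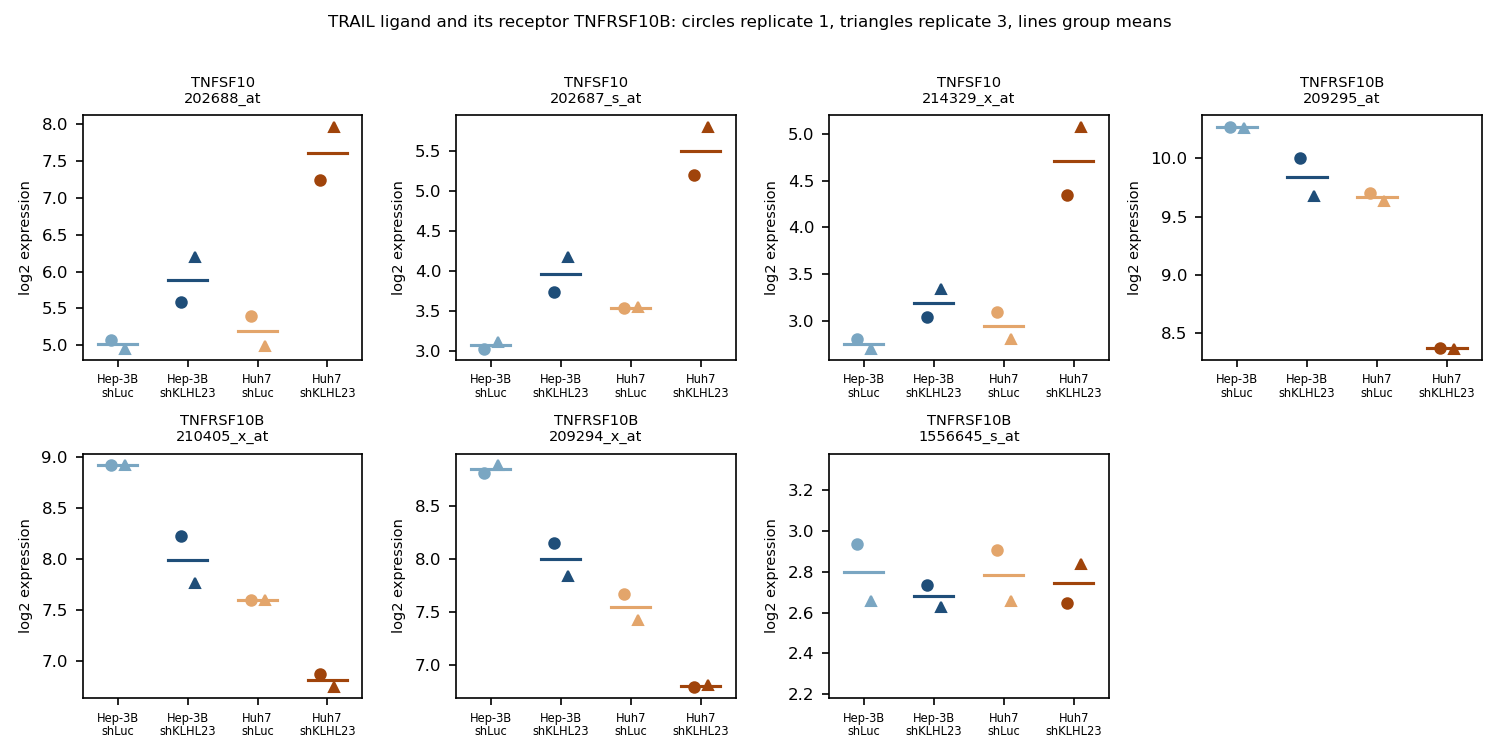
Log2 expression of every TNFSF10 and TNFRSF10B probe set, 1 panel each with its own vertical scale, in the 4 groups; circles are replicate 1, triangles replicate 3 and lines group means. The knockdown arrays lie above the controls in all 3 TNFSF10 panels in both lines, and below them in the 3 bright TNFRSF10B panels.

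TNFRSF10B, the death receptor DR5, moved the other way in both lines on its 3 bright probe sets. In Hep-3B 2 of them passed the test. Probe set 209294_x_at read 8.82 and 8.89 in controls and 8.16 and 7.84 with knockdown, a fall by 0.86 (SE 0.13, limma adjusted p = 0.0253) or 1.81-fold. Probe set 210405_x_at read 8.92 and 8.93 against 8.22 and 7.76, a fall by 0.93 (SE 0.14, limma adjusted p = 0.0256) or 1.91-fold. The brightest, 209295_at, read 10.27 and 10.26 against 10.00 and 9.68. All knockdown arrays were below all controls there too, but at -0.43 (SE 0.12) the difference missed the threshold (limma adjusted p = 0.121). Both Hep-3B calls were lost without either Hep-3B control, without knockdown replicate 3, or without either Huh7 control array, with limma adjusted p from 0.0502 to 0.212. Their suffixes mark probes that can match more than 1 transcript.

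In Huh7 the widest gap was on 209295_at, the probe set with the narrowest gap in Hep-3B. There 209295_at read 9.70 and 9.63 in controls and 8.38 and 8.37 with knockdown, a difference of -1.29 (SE 0.12) or 2.45-fold, the 64th largest fall among genes at their brightest probe set. Probe set 210405_x_at read 7.60 and 7.60 against 6.87 and 6.74, a 1.73-fold difference. Probe set 209294_x_at read 7.67 and 7.42 against 6.79 and 6.80, a 1.68-fold difference. Knockdown arrays were again below both controls on each. The remaining probe set, 1556645_s_at, was dim on every array (2.63 to 2.94) and differed by -0.12 in Hep-3B (limma adjusted p = 0.768) and -0.04 in Huh7.

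TNFRSF10B was also lower in Huh7 controls than in Hep-3B controls. The control lines differed by -0.60 on 209295_at (limma adjusted p = 0.00481), by -1.32 on 210405_x_at (adjusted p = 0.000144) and by -1.31 on 209294_x_at (adjusted p = 8.61e-05). This comparison uses the same Huh7 control arrays as the Huh7 knockdown difference. On all 3 probe sets the group means ranked in the same order, Hep-3B control, Hep-3B knockdown, Huh7 control, Huh7 knockdown. On 209295_at the middle pair overlapped, with the lower Hep-3B knockdown array at 9.68 and the higher Huh7 control at 9.70.

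TNFRSF10A, the death receptor DR4, showed no called change in Hep-3B. Its brightest probe set, 231775_at, read 7.31 and 7.31 in Hep-3B controls and 7.33 and 7.35 with knockdown (0.03, limma adjusted p = 0.961). The others were slightly lower with knockdown in Hep-3B, without overlap. There 241371_at read 7.40 and 7.34 against 7.25 and 7.10 (-0.20, limma adjusted p = 0.556). Probe set 1552648_a_at read 7.29 and 7.28 against 7.02 and 7.11 (-0.22, limma adjusted p = 0.543). In Huh7 231775_at read 6.44 and 6.40 against 6.59 and 6.06, so the knockdown arrays straddled the controls. Probe set 1552648_a_at did the same in Huh7, with 6.17 and 6.27 against 6.37 and 5.91. Only 241371_at separated there, with 6.70 and 6.50 against 6.09 and 5.76, a difference of -0.67 or 1.59-fold. The probe sets of this gene therefore disagree for Huh7, and its direction there is uncertain. Between the control lines all 3 had 1 direction: Huh7 was lower, at -0.90 on 231775_at (limma adjusted p = 0.00206), -0.77 on 241371_at (adjusted p = 0.00219) and -1.06 on 1552648_a_at (adjusted p = 0.000523 by limma).

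Of the decoy receptors, TNFRSF10D, whose cytoplasmic part is truncated, differed by cell line: 227345_at read 7.11 and 7.19 in Hep-3B controls but 4.99 and 5.42 in Huh7 controls, 3.85-fold lower (limma adjusted p = 0.00011). Its second probe set, 210654_at, read 5.69 and 5.76 against 3.79 and 3.90, 3.68-fold lower (limma adjusted p = 0.000173). With knockdown in Hep-3B, 227345_at read 7.54 and 7.99, above both controls by a mean of 0.62 (SE 0.20), which did not pass the test (limma adjusted p = 0.176). The second probe set did not share this, with 5.45 and 5.97 around its controls (-0.02, adjusted p = 0.984 by limma). In Huh7 the knockdown arrays read 5.56 and 5.11 on the first probe set, overlapping the controls, and 3.83 and 4.44 on the second.

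TNFRSF10C, a decoy held to the membrane by a lipid anchor, was dim. Its 4 probe sets lay between 2.90 and 4.56, below the array median on all 8 arrays, and none was called in any comparison. Their differences ran from -0.08 to 0.12 in Hep-3B (limma adjusted p from 0.82 to 0.989) and from -0.30 to -0.04 in Huh7. At these levels the arrays give little room to see a change.

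CFLAR, the c-FLIP gene, was covered by 14 probe sets at very different levels, and its 2 bright ones were lower with knockdown. Probe set 209939_x_at read 9.19 and 9.22 in Huh7 controls and 8.63 and 8.60 with knockdown, a 1.51-fold difference. In Hep-3B it read 9.33 and 9.31 against 9.13 and 8.90, a difference of -0.30 that was not called (limma adjusted p = 0.207). Probe set 210563_x_at read 8.89 and 8.89 against 8.43 and 8.37 in Huh7, 1.40-fold lower, and 8.96 and 9.00 against 8.83 and 8.70 in Hep-3B (-0.22, limma adjusted p = 0.32). On both, all knockdown arrays were below all controls in each line.

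The other 12 CFLAR probe sets were dimmer, between 2.23 and 6.79, and did not share 1 direction. Over all 14 the differences ran from -0.30 to 0.18 in Hep-3B and from -0.59 to 0.31 in Huh7, with medians of -0.08 and 0.05. Probe set 239629_at was higher with knockdown in both lines (0.15 in Hep-3B and 0.31 in Huh7), without overlap, while 210564_x_at was lower in both (-0.22 and -0.30). Of the 14, 10 carry suffixes for probes that can match other transcripts, and c-FLIP is known for its splice forms, but which transcript each probe set reads was not analysed here. In the control lines only the dim 235427_at differed, by 0.78 (limma adjusted p = 0.0321), and not without control replicate 3 of either line (0.208 for Hep-3B and 0.223 for Huh7).

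**Figure D2:**
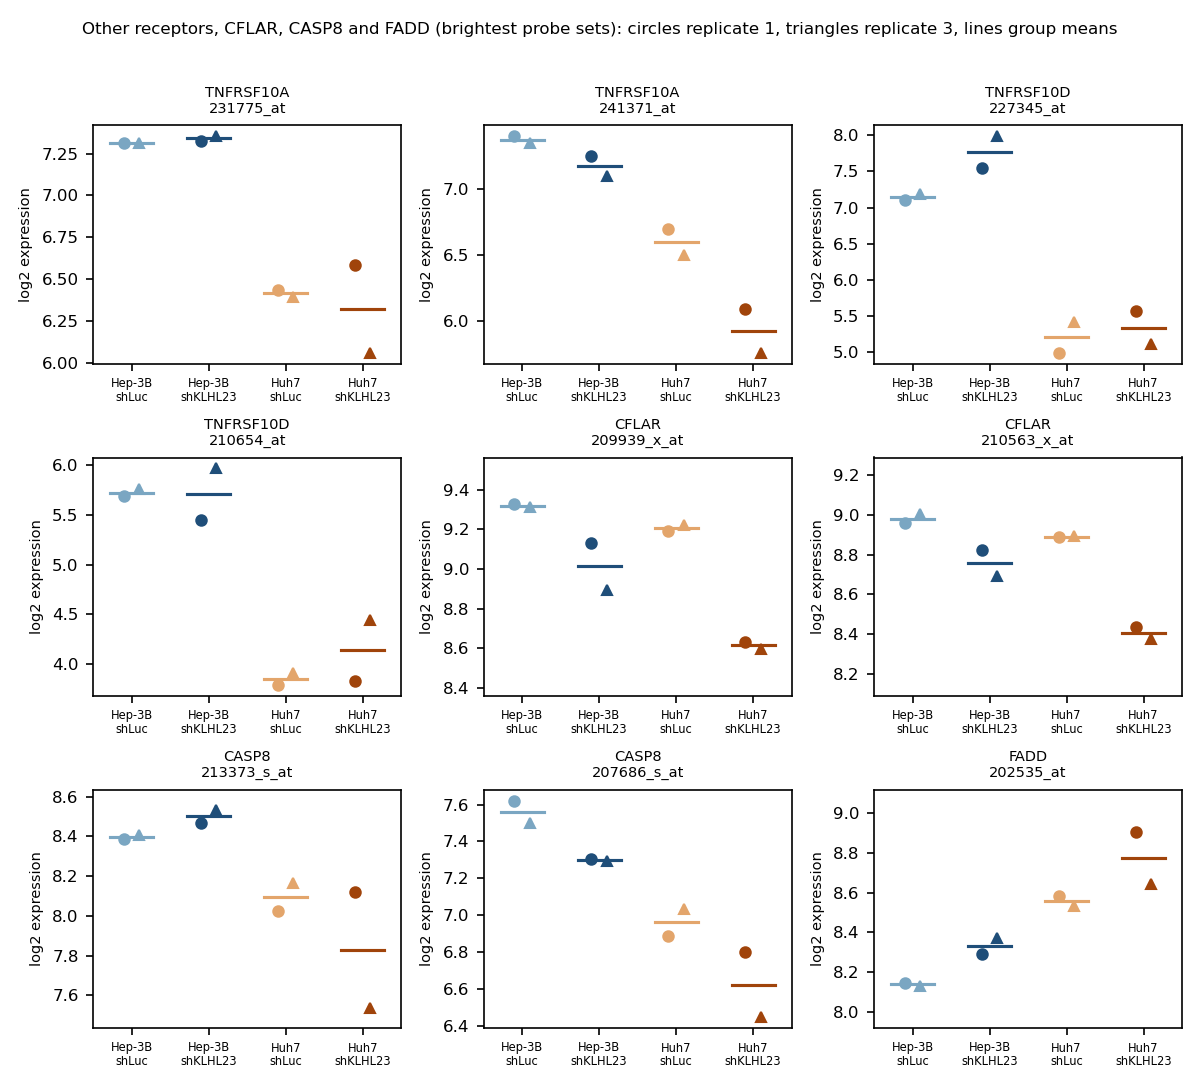
Log2 expression of the 2 brightest probe sets each of TNFRSF10A, TNFRSF10D, CFLAR and CASP8 and the 1 of FADD in the 4 groups, each panel with its own vertical scale; circles are replicate 1, triangles replicate 3 and lines group means. TNFRSF10D separates the lines more than the hairpins, and the 2 CFLAR probe sets shown lie lower with knockdown, without a call in Hep-3B.

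CASP8 and FADD, the protease and its adaptor, were among the genes with small differences. The brightest CASP8 probe set, 213373_s_at, read 8.39 and 8.41 against 8.47 and 8.53 in Hep-3B (0.10, limma adjusted p = 0.846) and 8.02 and 8.16 against 8.12 and 7.54 in Huh7, where only knockdown replicate 3 stood below the controls. Its second, 207686_s_at, read 7.62 and 7.50 against 7.30 and 7.29 in Hep-3B (-0.26, adjusted p = 0.386 by limma). In Huh7 that probe set read 6.89 and 7.03 against 6.80 and 6.45, a difference of -0.34 that was not called. Between control lines 207686_s_at was 1.52-fold lower in Huh7 (limma adjusted p = 0.00765), a call lost without control replicate 1 of either line (0.0645 for Huh7 and 0.0646 for Hep-3B). There 213373_s_at was not called (-0.30, adjusted p = 0.247 by limma), but was without either Huh7 knockdown array (0.0446). The remaining probe set, 1553306_at, was dim, at 2.79 to 3.27. It differed by -0.14 in Hep-3B (limma adjusted p = 0.702) and by 0.28 in Huh7, there without overlap and opposite in direction to the brighter ones.

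FADD had 1 probe set, 202535_at. It read 8.14 and 8.13 against 8.29 and 8.37 in Hep-3B, higher by 0.19 (limma adjusted p = 0.473), and 8.59 and 8.53 against 8.91 and 8.65 in Huh7, higher by 0.22. Knockdown arrays were above controls in both lines by small margins, and neither difference was called. FADD was 1.34-fold higher in Huh7 controls than in Hep-3B controls (limma adjusted p = 0.0215), a call lost without any 1 of the 4 control arrays (0.0773 to 0.114).

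Counted over the 34 probe sets, 2 were called in Hep-3B, both lower, where 1.15% of all probe sets were called, 0.65% lower and 0.498% higher. At an unadjusted p under 0.05 there were 8, or 23.5%, beside 15.6% of all probe sets. In Huh7 9 were called, 3 higher (TNFSF10) and 6 lower (3 of TNFRSF10B, 2 of CFLAR and 1 of TNFRSF10A), beside a background of 8.5% (3.83% higher and 4.67% lower), from which nothing is read since the genes were chosen on that comparison. Without either Huh7 control array 4 calls were left there, the 3 of TNFSF10 and 209295_at of TNFRSF10B. Median differences of the 34 were -0.07 in Hep-3B and -0.04 in Huh7, against 0.01 over all probe sets in each line. Arrays did not overlap between hairpins for 20 of the 34 in Hep-3B and 15 in Huh7, where 49.8% and 49.2% of all probe sets did not, so separation alone is common with 2 arrays a group.

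**Figure D3:**
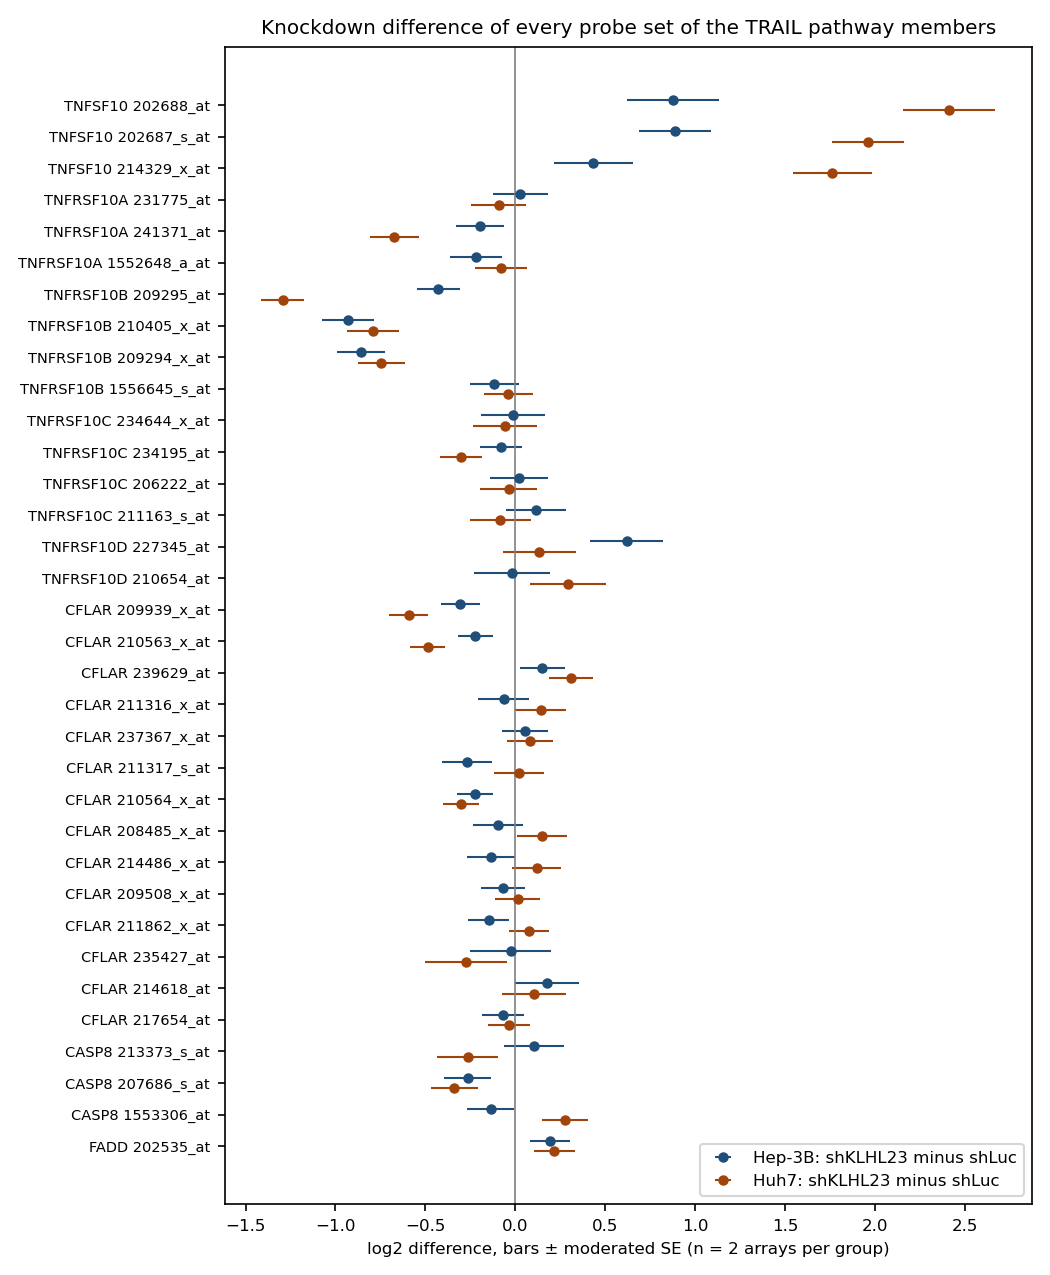
Log2 difference, shKLHL23 minus shLuc, of each of the 34 probe sets in Hep-3B and Huh7, grouped by gene; bars are standard errors from the limma fit. TNFSF10 reaches 2.41 in Huh7 and TNFRSF10B -1.29, while the CFLAR, TNFRSF10C, CASP8 and FADD probe sets lie between -0.59 and 0.31.

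In the controls the lines differed in 3 of the 4 TRAIL receptors. Between control lines 11 of the 34 probe sets were called, 9 of them lower in Huh7, beside a background of 25.8% called and 12.9% called lower. At 1 probe set per gene the background was 30.2%. The control arrays of the lines did not overlap for 21 of the 34, beside 62.7% of all probe sets. The 9 lower were 3 each of TNFRSF10A and TNFRSF10B, 2 of TNFRSF10D and 1 of CASP8. The 2 higher were FADD and the dim CFLAR probe set. TNFSF10 was called on none of its probe sets, at 0.18 to 0.47 higher in Huh7 (limma adjusted p from 0.125 to 0.697), though 202687_s_at passed in 4 of 15 alternative settings. Among them were array weights (limma adjusted p = 0.0346) and a fit to only the 4 arrays compared (0.00761). The rest of them left out 1 Huh7 knockdown array.

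The profile of TNFSF10 over the 8 arrays, centred on its mean, was nearest to those of LEAP2 (a liver-expressed peptide; root mean square distance 0.36 on the log2 scale), C6 (a complement component, 0.444), PCSK1N (0.452), CALML4 (0.481) and GDA (guanine deaminase, 0.494). The median distance over all genes was 1.07. The LEAP2 difference was 1.66 in Huh7 and 0.37 in Hep-3B. Nearest to TNFRSF10B were GSE1 (0.0783), KRABD5 (0.0967), SIK1 (a salt-inducible kinase, 0.102), ITGA2 (integrin alpha 2, 0.124) and KCNG3 (0.143), with a median over all genes of 0.731. These are likenesses over 8 arrays in 4 groups and carry no test.

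The difference between the lines in knockdown effect was called for 1 other gene of death receptor signalling, FAS, by limma's interaction. The 60 measured genes of 3 lists (other ligands and receptors, adaptors of the death complex, and executioner and mitochondrial proteins) were counted at their brightest probe set. None was called there in Hep-3B by limma and 13 had an unadjusted p under 0.05. Dimmer probe sets of these genes were not counted, and for some genes 1 of them was called in Hep-3B. Of all genes, each at its brightest probe set, 0.971% were called in Hep-3B and 16.2% had an unadjusted p under 0.05. These lists and those below were chosen with earlier results of these data known, so their counts beside the background are a description. For the same reason the p-values of genes named from them are no independent support. In Huh7 4 were called higher and 7 lower, or 18.3%, beside a background of 10.7%. The count was 0 without Huh7 control replicate 1 and 1 without control replicate 3, where the calls over all probe sets also went from 4641 to 776 and 549. It was 7 without Huh7 knockdown replicate 1 or without either Hep-3B control. In Hep-3B the count was 4 without knockdown replicate 1 of that line.

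Among other ligands and receptors, 13 measured, TNFRSF1A (the main TNF receptor) rose by 0.57 in Huh7 (limma adjusted p = 0.0119) and FAS, the receptor of Fas ligand, fell by 0.70 between dim values (adjusted p = 0.00734). In Hep-3B the largest differences were -0.46 for TNFRSF12A (adjusted p = 0.155) and 0.30 for FAS (adjusted p = 0.223 by limma). TNFRSF11B, a soluble receptor of TRAIL and RANKL, was dim and was not called. Of 20 adaptors and complex members, RBX1 (0.74, adjusted p = 0.00477) and CUL3 (0.45, adjusted p = 0.0274 by limma), core parts of cullin 3 ligases, rose in Huh7. For CUL3 this was the brightest of 3 probe sets, of which 1 was called. TNFAIP3, the A20 deubiquitinase, fell by 0.92 (adjusted p = 0.0227), and BIRC2, the ligase cIAP1, by 0.74 (limma adjusted p = 0.009). In Hep-3B TNFAIP3 was at -0.80 (adjusted p = 0.086) and DEDD2 at 0.46 (limma adjusted p = 0.17). CASP10, the sister of CASP8 at the receptor, differed by 0.00 in Hep-3B and 0.02 in Huh7.

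Of 27 executioner and mitochondrial genes, PMAIP1 (NOXA, a BH3-only protein) fell by 1.91 in Huh7 (limma adjusted p = 0.00917) and BIK, another BH3-only protein, by 0.83 (adjusted p = 0.0146). GSN, the actin-severing protein gelsolin, rose by 0.55 (adjusted p = 0.028 by limma). In Hep-3B PMAIP1 was at -1.18 (adjusted p = 0.109) and BCL2A1, a BCL2-like survival protein, at 0.92 (limma adjusted p = 0.0692). BID, which caspase 8 cleaves to reach mitochondria, was not called on any of 3 probe sets, at 0.18 to 0.28 in Hep-3B and -0.04 to 0.23 in Huh7.

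**Figure D4:**
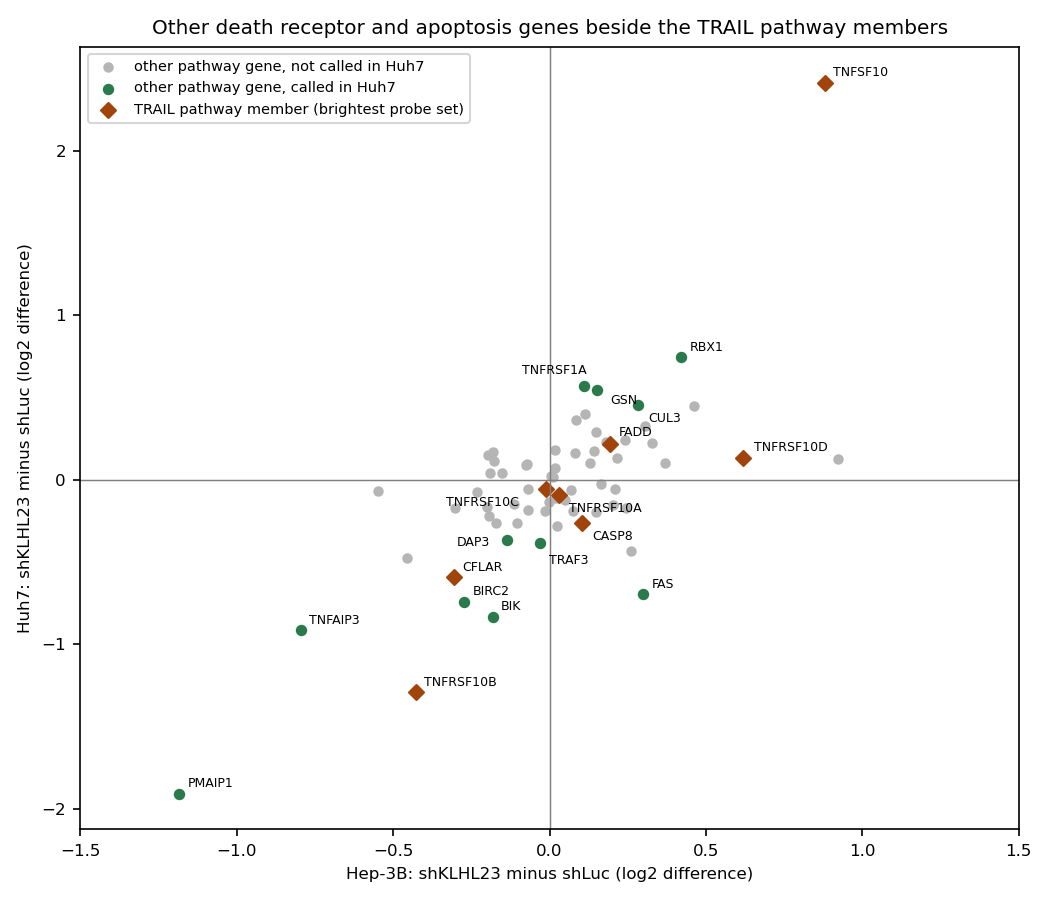
Log2 difference, shKLHL23 minus shLuc, in Hep-3B (horizontal) and Huh7 (vertical) for 60 other genes of death receptor signalling (circles, green where called in Huh7) and the 8 TRAIL pathway genes at their brightest probe set (diamonds). TNFSF10 stands at the upper right, at 0.88 and 2.41, and PMAIP1 at the lower left, at -1.18 and -1.91.

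Of regulators known to act on TNFSF10 or TNFRSF10B, 17 were measured. None was called in Hep-3B by limma, with 8 at an unadjusted p under 0.05, and 7 were called lower and 0 higher in Huh7. Over all genes 16.2% had such a p in Hep-3B, and 6.2% were called lower and 4.46% higher in Huh7. KLF4 fell by 1.81 (limma adjusted p = 0.00313). DDIT3, the stress factor CHOP and a known activator of TNFRSF10B, fell by 1.18 (limma adjusted p = 0.0334). MYC fell by 0.83 (adjusted p = 0.023) and FOXO3, a forkhead factor known to activate TNFSF10, by 0.82 (adjusted p = 0.0149 by limma). In Hep-3B KLF4 was at -1.03 (limma adjusted p = 0.0641), MYC at -0.82 (adjusted p = 0.0652) and DDIT3 at -0.81 (adjusted p = 0.195). The Huh7 count of 7 was 1 or 2 without either Huh7 control array or without knockdown replicate 1, and the Hep-3B count was 4 without knockdown replicate 1 of that line.

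Targets of CHOP and ATF4, a list that also holds DDIT3, ATF4 and PMAIP1, were mostly lower. Of 23 measured, 14 were called lower and 0 higher in Huh7 (6.2% and 4.46% of all genes). In Hep-3B 1 was called, lower, where 0.238% of all genes were called lower. It was PPP1R15A (GADD34, the phosphatase subunit that reverses translational arrest) at -1.20 (limma adjusted p = 0.0377). Besides calls, 20 of the 23 had an unadjusted limma p under 0.05 in Hep-3B, beside 16.2% of all genes. Median differences were -1.18 in Huh7 and -0.999 in Hep-3B. In Huh7 the largest falls were -2.89 for INHBE (an activin subunit, adjusted p = 0.00734), -2.82 for DDIT4 (adjusted p = 0.0424) and -2.25 for ATF3 (a stress-induced factor, adjusted p = 0.0357 by limma). The Huh7 count was 1 without either Huh7 control and 7 without its knockdown replicate 1. The Hep-3B count was 12 without knockdown replicate 1 and 0 without any other array. TNFRSF10B was lower beside these genes in both lines, and a link between them was not tested.

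Interferon-stimulated genes, a group to which TNFSF10 is often counted, moved in both directions. Of 45 measured, 5 were called higher and 4 lower in Huh7, with a median of 0.05, beside 4.46% and 6.2% of all genes. IFITM2 (0.81, limma adjusted p = 0.00654), IFITM3 (0.75, adjusted p = 0.00657) and OAS1 (0.75, adjusted p = 0.023) rose, and the chemokine CXCL10 fell by 1.12 (adjusted p = 0.0118 by limma). In Hep-3B 2 were called higher and 0 lower, beside 0.733% and 0.238% of all genes. There IFI27 rose by 1.90 (limma adjusted p = 0.0121) and CMPK2 by 1.49 (adjusted p = 0.0256), and the median was again 0.05. Besides calls, 12 of the 45 had an unadjusted limma p under 0.05 in Hep-3B, beside 16.2% of all genes. The Huh7 count of 9 was 1 without either Huh7 control, 2 without knockdown replicate 1 and 6 without either Hep-3B control. Both Hep-3B calls were lost without either Hep-3B control or knockdown replicate 3.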

How the data were processed

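The authors deposited log2 expression values. According to the submitters' processing notes these come from RMA, run in Expression Console 1.2 of Affymetrix. This method corrects background, equalises the distributions of the arrays and summarises probes per probe set, so a change in total RNA per cell is not seen. Of 54675 probe sets 62 array controls were left out. Of the rest, 41091 had 1 gene symbol in the platform annotation, 1801 had several and 11721 had none. Symbols were looked up in RefSeq (GRCh38.p14) and 0 of 41037 changed.

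All 8 arrays entered 1 limma 3.58.1 means model with a mean per group (R 4.3.3, lmFit and eBayes, 4 residual and 5.17 prior degrees of freedom). Benjamini-Hochberg adjustment ran over 54613 probe sets, and those with an adjusted p under 0.05 were called. SE stands for eBayes's moderated error of the difference. Few arrays limit the precision.

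The genes and lists were chosen with earlier results of these data known. Of each list the up to 4 called genes with the largest difference per line are named, or the 2 largest where none was called, at the brightest probe set. KLHL23, TNFRSF11B, CASP10, BID and DDIT3 are always given, and likeness names the 5 nearest genes. Some listed genes are not reported here. The lists held other ligands and receptors, complex adaptors, executioners, regulators, interferon-stimulated genes, CHOP and ATF4 targets, and markers of hepatocytes and of lymphoid, myeloid, endothelial and stellate cells. The fit was tested on simulated data. In all 17 alternative settings were run, and leaving arrays out of the list counts was a choice made later, with the data in view.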

Additional observations from a re-analysis of the deposited data

Results flagged for a closer look

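FAS differed between the lines in its response to the knockdown: subtracting its Hep-3B difference from that in Huh7 gave -0.996 on the log2 scale (limma interaction, adjusted p = 0.0307). It fell by 0.70 in Huh7 and was 0.30 higher in Hep-3B, where the difference was not called. Its brightest probe set read 8.19 to 8.64 in Hep-3B but 3.15 to 3.87 in Huh7, below the array medians, so the Huh7 fall is between dim values. Of 5 FAS probe sets, 1 was called in Huh7.

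IFI27, an interferon-stimulated gene, also differed between the lines, with an interaction of -1.81 (limma adjusted p = 0.0451). It rose by 1.90 in Hep-3B and was 0.09 higher in Huh7, which was not called.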

How the results depend on the processing

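Over the settings run, no called difference of the 34 probe sets or of KLHL23 changed its sign. This was hardly a test of them. On each the arrays of the compared groups did not overlap, so leaving 1 out could not turn the sign. Most other settings keep the difference itself and change only its error or the adjustment. Single genes of the lists were not followed this way. With 1 probe set per gene the limma counts of called probe sets were 137 in Hep-3B, 2666 in Huh7 and 6457 between control lines, against 627, 4641 and 14086 over all probe sets. Without probe sets suffixed _x_at or _s_at they were 316, 2741 and 8533. An intensity trend with a robust prior gave 1963 in Hep-3B and array weights 1715. A fit to only the 4 arrays compared gave 0 in Hep-3B (9361 at an unadjusted p under 0.05) and 2139 in Huh7. Leaving out 1 array gave 0 to 1991 in Hep-3B, 549 to 5394 in Huh7 and 9463 to 15565 between control lines. Of the 34 TRAIL pathway probe sets, limma called 2 in Hep-3B. This count was 0 of 8 at 1 probe set per gene (4 at an unadjusted p under 0.05), 0 of 15 without the suffixed probe sets (3 unadjusted), 0 in the fit to 4 arrays (10 unadjusted), 4 with the trend and 0 to 4 without 1 array. The Huh7 count of 9 was 3 at 1 probe set per gene, 3 without suffixed probe sets and 4 to 10 without 1 array. Between control lines 11 became 4 at 1 probe set per gene and 9 to 13 without 1 array. Over these settings the TNFSF10 difference on 202688_at stayed between 2.05 and 2.77 in Huh7 and between 0.58 and 1.18 in Hep-3B, where 0 of 17 settings called it. The ends of both ranges come from leaving out 1 knockdown array of that line, and the Huh7 difference is one the genes were chosen on. Where a count moved, the smaller sets of probe sets or arrays were part of the setting. Otherwise the cause was not tested.

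With the replicate number as a block, 1127 probe sets were called in Hep-3B, and TNFSF10 202687_s_at passed (limma adjusted p = 0.032), making 3 of the 34. Arrays of 1 number did not visibly move together: their replicate differences correlated at -0.035 in Hep-3B and 0.0535 in Huh7 over 54613 probe sets. The labels do not say whether samples of 1 number were handled as a pair, and these correlations cannot settle it. Dim probe sets, all of TNFRSF10C among them, limit what can be seen.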

Other observations

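A pair of further probe sets is shared in the annotation between TNFRSF10C and LOC254896 and was kept out of the counts. Probe set 210483_at read 5.38 to 6.16 and 210484_s_at 4.14 to 5.16 over the 8 arrays, and the first was brighter on every array than any probe set of TNFRSF10C alone. Neither was called by limma with knockdown in Hep-3B (-0.01 and 0.16) or in Huh7 (0.02 for each). In Huh7 controls against Hep-3B controls 210484_s_at was lower (-0.62, limma adjusted p = 0.00447), and 210483_at was not called (-0.46, adjusted p = 0.0598 by limma).

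Of 14 hepatocyte markers TTR was called higher in both lines and AMBP in Huh7. Of the markers of other liver cell types, LYVE1 (an endothelial marker) rose by 1.30 in Hep-3B (limma adjusted p = 0.0209), the only one of 8 endothelial markers called there. No stellate, myeloid, lymphoid or natural killer marker was called in either knockdown comparison. Among myeloid markers LYZ was bright in these cells, at a mean of 11.7, and the next, CD14, averaged 5.62.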
